A study of Mus musculus with 4 samples.

Results

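The 10 genes described here encode proteins of the neuromuscular junction, the synapse at which a motor neuron releases acetylcholine onto a muscle fibre. They were taken by symbol from the gene expression tables and comprise the 5 subunits of the muscle acetylcholine receptor (Chrna1, Chrnb1, Chrnd, Chrng and Chrne), 4 genes that gather the receptor under the nerve ending (Lrp4, Musk, Dok7 and Rapsn) and Ache, the enzyme that degrades acetylcholine. All 10 were found, each as 1 entry with an accepted estimate in every library, among 24320 distinct symbols in the total RNA tables and 24438 in the polyA tables. C2C12 cells are an established line of mouse myoblasts, which stop dividing and fuse into myotubes in low serum. The study collected C2C12 myoblasts (MB) 24 h before differentiation medium (DM, with horse serum in place of fetal bovine serum) and myotubes (MT) after 72 h in DM by the sample label (a legend of the study names an earlier time) for total RNA-seq on rRNA-depleted RNA. It also collected C2C12 cells after 48 h in DM for polyA RNA-seq, after transfection with a control siRNA (si-NC) or an siRNA against hnRNPL (si-hnRNPL), an RNA-binding protein of the nucleus. All 4 libraries come from this single line grown without neurons, and each condition has 1 library, so the differences below could not be checked between replicates and carry no p-value.

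In muscle the receptor is a pentamer with a pair of alpha subunits, 1 beta subunit, 1 delta subunit, and either the gamma subunit of fetal and denervated muscle or the epsilon subunit of the mature, innervated synapse. Agrin released by the nerve binds Lrp4 on the muscle surface, Lrp4 activates the receptor kinase Musk, the adaptor Dok7 sustains that kinase, and Rapsn ties the receptors into clusters. Before innervation the genes of the fetal receptor are switched on along the whole myotube by MyoD and myogenin, transcription factors that bind E-boxes, the sequence CANNTG. After innervation Chrng is silenced, and nuclei beneath the synapse transcribe Chrne and the other subunits through ETS-family factors such as GABP.

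RefSeq promoter sequences were matched by symbol for 7 members, namely Chrna1, Chrnb1, Chrng, Chrne, Musk, Dok7 and Ache. Chrnd, Rapsn and Lrp4 had no entry. The 250 bases before the transcript start are shown for the 4 receptor subunit genes with an entry, 5′ to 3′ with each CANNTG match in capitals.
Chrng upstream, chr1:87205561-87205810, GRCm38.p6, plus strand: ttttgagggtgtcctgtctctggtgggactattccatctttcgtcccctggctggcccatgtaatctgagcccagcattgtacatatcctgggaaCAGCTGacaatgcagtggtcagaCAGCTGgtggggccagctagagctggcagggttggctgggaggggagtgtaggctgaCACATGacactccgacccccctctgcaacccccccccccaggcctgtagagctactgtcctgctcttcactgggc
Chrne upstream, chr11:70619195-70619444, GRCm38.p6, minus strand: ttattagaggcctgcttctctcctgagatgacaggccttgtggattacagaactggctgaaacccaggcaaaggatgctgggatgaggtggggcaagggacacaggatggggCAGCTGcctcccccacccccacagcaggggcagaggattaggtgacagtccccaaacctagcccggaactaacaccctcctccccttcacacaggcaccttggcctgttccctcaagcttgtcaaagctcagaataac
Chrna1 upstream, chr2:73580339-73580588, GRCm38.p6, minus strand: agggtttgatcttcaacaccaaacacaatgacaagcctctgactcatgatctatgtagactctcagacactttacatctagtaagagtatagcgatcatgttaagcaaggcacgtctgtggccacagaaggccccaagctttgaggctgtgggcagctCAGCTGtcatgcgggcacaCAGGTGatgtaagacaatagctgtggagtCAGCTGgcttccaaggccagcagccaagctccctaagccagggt
Chrnb1 upstream, chr11:69795938-69796187, GRCm38.p6, minus strand: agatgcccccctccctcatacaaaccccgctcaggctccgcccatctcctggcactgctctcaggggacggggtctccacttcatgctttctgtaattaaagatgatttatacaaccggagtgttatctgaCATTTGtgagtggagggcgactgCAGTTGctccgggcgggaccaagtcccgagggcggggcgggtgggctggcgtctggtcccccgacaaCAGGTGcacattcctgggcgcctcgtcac

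Within these windows Chrng and Chrna1 each held 3 CANNTG matches, of which 2 were CAGCTG, a form of the E-box contained in CANNTG. In Chrng the CAGCTG matches began 155 and 132 bases before the transcript start, and in Chrna1 they began 92 and 44 bases before it. The window of Chrne held 1 match, a CAGCTG at 138 bases before the start, and that of Chrnb1 held 3 matches, none of them CAGCTG. Musk held 3 matches with 1 CAGCTG, Ache held 1 match, and of the 2 Dok7 windows the first held 1 match and the second none. Read on both strands, CANNTG occurred in at least 1 window of each of the 7 members and in 66.2% of 32851 windows of the same length. CAGCTG occurred in 4 of the 7 members, against 13% of all windows, and the ETS core CCGGAA in 1, Chrne, against 12%. The 7 members had 8 windows in all, so these counts of members are not in the same unit as the shares of windows. The 4 members with CAGCTG include Chrne, the subunit gene with almost no mRNA in any library. A match is a description of letters in the window and not a measured binding site.

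Expression is given as FPKM, the fragments of a gene divided by its transcript length and by the mapped fragments of the library, which is per length and so can be set side by side between genes of a library. The interval after each FPKM value is the 95% interval of the quantification, which covers counting and assignment error within 1 library and no biological variation. From these intervals the effective number of fragments was 59960176 (MB), 54442423 (MT), 21341051 (si-NC) and 14592480 (si-hnRNPL). All 4 libraries carried muscle genes: Myod1 lay between 36.6 FPKM in MB and 65.9 FPKM in MT, and 5 of the 6 muscle markers examined were higher in MT than in MB. The 5 motor neuron markers summed to at most 0.638 FPKM in a library, reached in MT. Nearly all of that sum was Slc5a7, at 0.636 FPKM in MT against 0.221 FPKM in MB (log2 change 0.42). Isl1 was highest in si-NC, at 0.197 FPKM. The acetylcholine-synthesising enzyme Chat was at 0 to 0.0022 FPKM, and both Slc18a3 and Mnx1 were listed at 0 in all 4 libraries. The 4 Schwann cell markers summed to between 0.424 and 0.816 FPKM. The target of the knockdown, Hnrnpl, was at 95.1 FPKM in si-NC and 85.9 FPKM in si-hnRNPL (log2 change −0.14, interval −0.20 to −0.09), and it was at 111.0 FPKM in MB and 63.0 FPKM in MT. The mRNA of the target was thus only slightly lower in the library labelled si-hnRNPL, and hnRNPL protein was not measured in these files. The study examined the knockdown by Western blot in cells transfected with siRNAs against hnRNPL and kept in DM for 48 h.

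The mRNA of most members was higher in myotubes than in myoblasts. A change is given as the log2 of the ratio of (FPKM + 1), and a gene was counted as higher or lower at an absolute change of 0.58 or more, which corresponds to the fold change used in the study. By that rule 8 of the 10 members counted as higher in MT. None counted as lower, and the median change was 1.53. Among 18325 named genes above 0 FPKM in at least 1 of the 2 libraries, 10.6% were counted as higher and 18.5% as lower. Among the 11748 named genes at 1 FPKM or more in at least 1 library, which take in the same 8 members, 15.4% were counted as higher. The median of all named genes at 1 FPKM or more in both libraries was −0.23 on the same scale, and relative to it the members' median was 1.75. With both tables rescaled to the same FPKM total the members' median was 2.59 and 9 members counted as higher, since the summed FPKM of named genes differed by a factor of 2.1. In a bulk library more myotube nuclei in the dish and more RNA per myotube cannot be told apart.

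**Figure D1:**
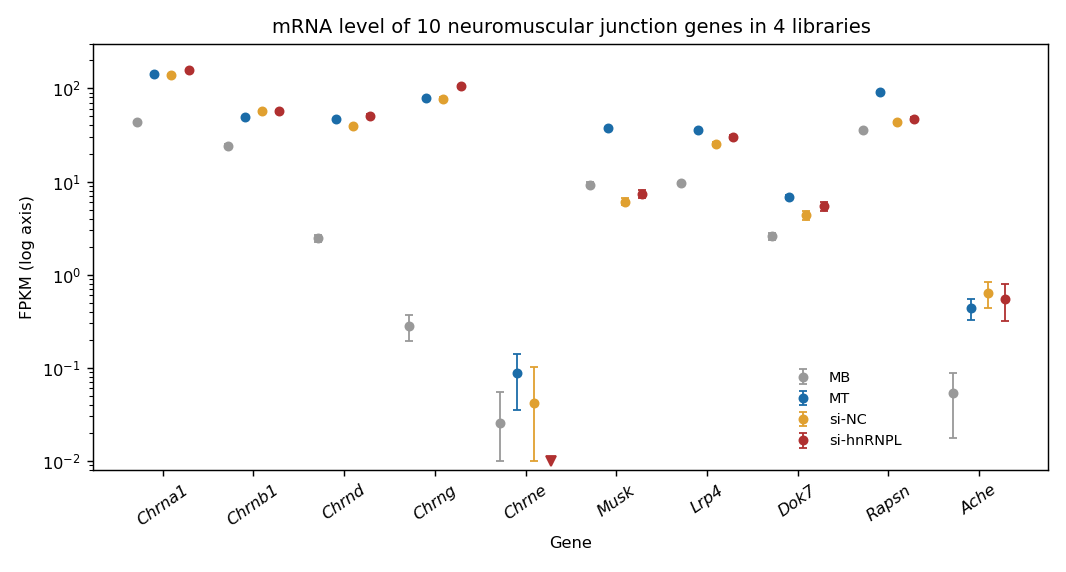
FPKM (log axis) of the 10 genes in MB, MT, si-NC and si-hnRNPL, with 1 point per library and bars for the 95% interval of quantification, cut at 0.01. The triangle marks Chrne in si-hnRNPL, which is listed at 0. Among the genes above 0 in every library, Chrng spans the widest range on the log axis, from 0.281 FPKM in MB to 105.5 FPKM in si-hnRNPL.

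Chrng, the gamma subunit of the fetal receptor, differed most. It was at 0.281 FPKM in MB (interval 0.193 to 0.369, about 41 fragments) and at 79.7 FPKM in MT (78.2 to 81.1). In the polyA libraries it was at 77.8 FPKM in si-NC and 105.5 FPKM in si-hnRNPL. It was thus scarce before differentiation and among the 3 most abundant members in each library from DM. The FPKM ratio of MT to MB was 284 (exact Clopper-Pearson interval 209 to 395), the log2 change was 5.98, and Chrng ranked 18 from the highest among the 11748 named genes.

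Chrnd, the delta subunit, was at 2.46 FPKM in MB (2.26 to 2.67) and 46.6 FPKM in MT (45.7 to 47.4), a ratio of 18.9 (17.4 to 20.6). In si-NC and si-hnRNPL it was at 39.3 and 50.9 FPKM. Chrnd and Chrng are neighbours on chromosome 1, transcribed from the same strand, with Chrnd at 89087172-89096645 and Chrng at 89102386-89108410 (mm9). The ratio of Chrng to Chrnd changed from 11.4% in MB (8.25% to 15.7%) to 171.1% in MT (166.7% to 175.6%), so Chrng went from the lower to the higher of this pair.

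Chrna1, the alpha subunit that carries the acetylcholine binding site, was the most abundant member in all 4 libraries. It was already at 43.7 FPKM in MB (43.0 to 44.4) and reached 143.6 FPKM in MT (142.4 to 144.9), a ratio of 3.29 (3.23 to 3.35). In si-NC it was at 140.3 FPKM and in si-hnRNPL at 156.5 FPKM. In MB Chrna1 exceeded 92.2% of the named entries, and in MT 98.7%.

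Chrnb1, the beta subunit, showed the smallest change of the 4 subunits counted as higher. It was at 24.3 FPKM in MB (23.5 to 25) and 48.8 FPKM in MT (47.7 to 49.8), a ratio of 2.01 (1.94 to 2.09). It was at 56.7 FPKM in si-NC and 56.9 FPKM in si-hnRNPL, where the intervals overlap. The subunits common to every muscle receptor therefore did not share 1 course, with log2 changes of 1.69 for Chrna1, 0.98 for Chrnb1 and 3.78 for Chrnd.

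Chrne, the epsilon subunit of the adult receptor, stayed at the edge of detection. It was at 0.0253 FPKM in MB (about 3 fragments), 0.0884 FPKM in MT (about 11 fragments) and 0.0421 FPKM in si-NC (about 2 fragments), and it was listed at 0 in si-hnRNPL. The FPKM ratio of MT to MB was 3.50 with an exact interval of 0.924 to 19.5, which includes 1. The interval of its log2 change of 0.09 (0.004 to 0.17) left out 0. The 2 intervals thus disagree, and at this depth it could not be told whether Chrne differed. Of the FPKM summed over Chrng and Chrne, Chrng made up 91.7% in MB (78.0% to 100%), 99.889% in MT (99.819% to 99.957%) and 99.946% in si-NC. The subunit of the fetal receptor was therefore nearly the whole of this pair in each library, and in MB that share rests on about 41 fragments of Chrng and 3 of Chrne.

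**Figure D2:**
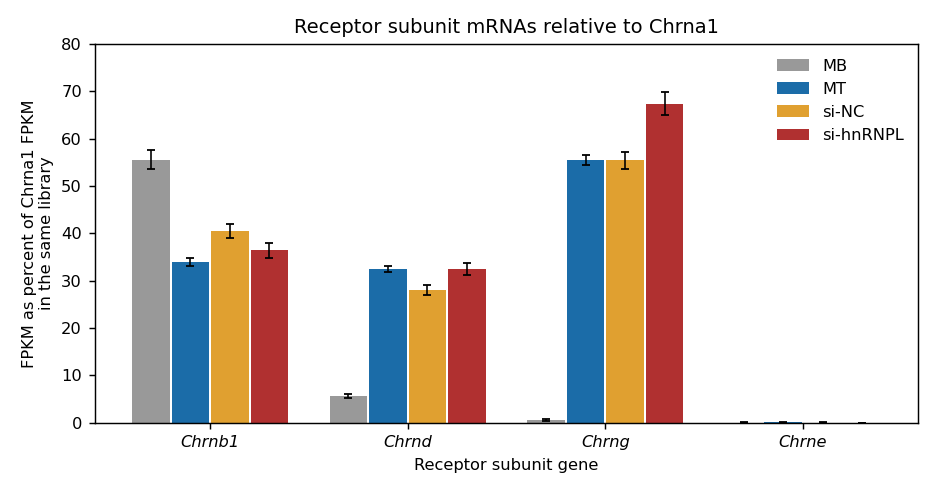
FPKM of the Chrnb1, Chrnd, Chrng and Chrne subunit genes as percent of Chrna1 FPKM in the same library, 1 bar per library with bars starting at 0 and error bars from the intervals of quantification. Chrng stands at 0.643% in MB and between 55.4% and 67.4% in the other 3 libraries, Chrnb1 is the tallest bar in MB at 55.5%, and Chrne cannot be seen at this scale.

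Set against Chrna1 in the same library, which removes any scaling factor between libraries, the subunit genes moved in different directions. Chrnb1 was at 55.5% of Chrna1 in MB and 34.0% in MT, Chrnd at 5.64% and 32.4%, Chrng at 0.643% and 55.5%, and Chrne at 0.0579% and 0.0616%. In MB the messages for the alpha and beta subunits thus exceeded those for delta and gamma by far, whereas in MT these 4 lay between 32.4% and 100% of Chrna1. In si-NC Chrnb1 was at 40.4%, Chrnd at 28% and Chrng at 55.4% of Chrna1. The 5 subunit genes summed to 70.7 FPKM in MB, 318.7 in MT, 314.1 in si-NC and 369.8 in si-hnRNPL, and Chrna1 made up 61.8% of this sum in MB and 45.1% in MT. MT and si-NC differ in library type, time in DM and transfection and were quantified in separate tables, so their values stand side by side here with no test or fold change between them.

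The 4 genes of receptor clustering were all counted as higher in MT, with log2 changes between 1.13 and 1.91. Musk, the receptor tyrosine kinase that organises the postsynaptic membrane, was at 9.27 FPKM in MB (8.76 to 9.77) and 37.5 FPKM in MT (36.6 to 38.5), a ratio of 4.05 (3.82 to 4.30). Lrp4, its co-receptor for agrin, was at 9.62 FPKM in MB (9.34 to 9.89) and 36.1 FPKM in MT (35.6 to 36.6), a ratio of 3.76 (3.64 to 3.88). The messages of kinase and co-receptor had nearly equal FPKM in both total RNA libraries, Musk at 96.4% of Lrp4 in MB (90.6% to 102.5%) and 103.9% in MT (100.9% to 107.0%). This near equality was not common to all libraries, since Musk was at 23.9% of Lrp4 in si-NC.

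Rapsn, the scaffold that binds the receptor from inside the cell, was the second most abundant member in both total RNA libraries, at 35.4 FPKM in MB (34.3 to 36.5) and 92.6 FPKM in MT (90.9 to 94.3). Its ratio was 2.61 (2.52 to 2.71), so relative to Chrna1 it was at 81.0% in MB and 64.4% in MT. Dok7, the cytoplasmic activator of Musk, was the least abundant of the 4, at 2.58 FPKM in MB (2.34 to 2.81) and 6.82 FPKM in MT (6.45 to 7.19), a ratio of 2.65 (2.39 to 2.94). The component present before differentiation at the highest level was thus the scaffold, with Dok7 at 5.90% of Chrna1 in MB and 4.75% in MT.

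In the polyA libraries the clustering genes were ordered as Rapsn, Lrp4, Musk and Dok7. Musk was at 6.06 FPKM in si-NC and 7.33 FPKM in si-hnRNPL, which is 4.32% and 4.68% of Chrna1. Rapsn was at 43.1 and 46.9 FPKM, the first being 30.7% of Chrna1. Lrp4 was at 25.4 and 30.2 FPKM, so that Musk stood at 23.9% of Lrp4 in si-NC and 24.3% in si-hnRNPL. In MT, a library of another type and time, Musk was at 26.1% of Chrna1, a value given side by side only. Dok7 was at 4.33 FPKM in si-NC and 5.44 FPKM in si-hnRNPL.

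Ache, which ends the signal by cleaving acetylcholine, was low throughout. It was at 0.0530 FPKM in MB (about 9 fragments), 0.438 FPKM in MT (about 62 fragments), 0.629 FPKM in si-NC and 0.552 FPKM in si-hnRNPL. The FPKM ratio of MT to MB was 8.27 (4.09 to 18.9), yet the log2 change of (FPKM + 1) was 0.45, below the limit of 0.58. Both Ache and Chrne lie under 1 FPKM, where the added 1 understates a change, and with a pseudocount of 0.1 both were counted as higher in MT, at 1.81 and 0.59.

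By level the members were ordered in MB as Chrna1, Rapsn, Chrnb1, Lrp4, Musk, Dok7, Chrnd, Chrng, Ache and Chrne, where Lrp4 and Musk, Dok7 and Chrnd, and Ache and Chrne had overlapping intervals. In MT the order was Chrna1, Rapsn, Chrng, Chrnb1, Chrnd, Musk, Lrp4, Dok7, Ache and Chrne, with overlap of Musk and Lrp4 alone. In si-NC it was Chrna1, Chrng, Chrnb1, Rapsn, Chrnd, Lrp4, Musk, Dok7, Ache and Chrne with no overlap between neighbours. In si-hnRNPL Chrnd and Rapsn exchanged places with overlapping intervals. Chrng was therefore the member that moved furthest, from place 8 in MB to place 3 in MT.

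The knockdown comparison gave small changes for these genes. None of the 10 reached 0.58 in either direction, among 16499 named genes of which 0.939% were counted as higher and 0.618% as lower in si-hnRNPL. Of the 11323 named genes at 1 FPKM or more in at least 1 of the libraries, 1.3% were counted as higher. The median change of the members was 0.20, while the median of named genes at 1 FPKM or more in both libraries was −0.01. For 7 members the interval of the change left out 0, all on the higher side. That criterion is far looser: 15.3% of the 16499 named genes, and 21.1% of the 11323 at 1 FPKM or more in at least 1 library, had an interval wholly above 0.

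**Figure D3:**
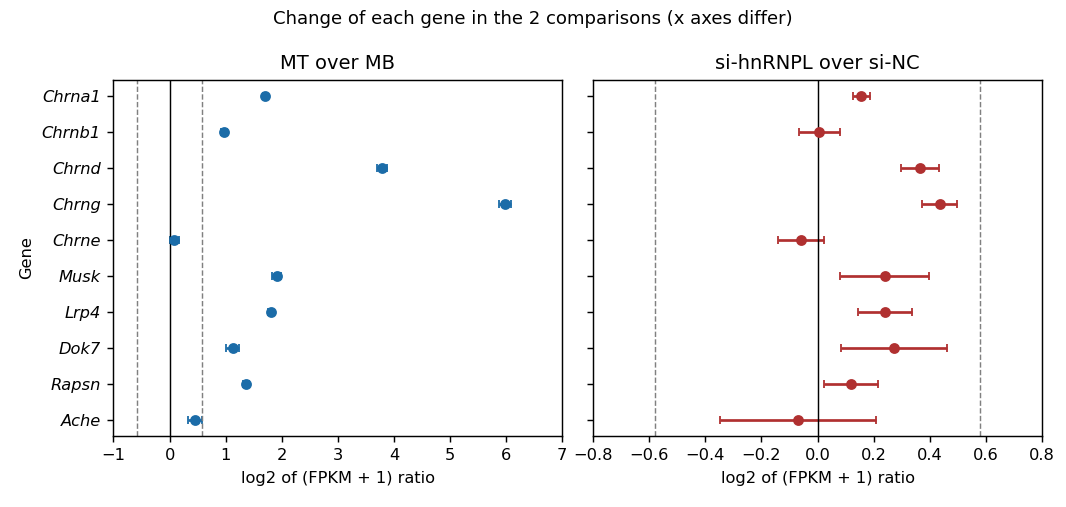
Log2 of the (FPKM + 1) ratio of each gene for MT over MB (left) and si-hnRNPL over si-NC (right), with 95% intervals from quantification, a solid line at 0 and dashed lines at 0.58 in either direction. The x axes differ: on the left 8 genes lie beyond the dashed line, up to 5.98 for Chrng, and on the right all 10 lie between the lines, from −0.07 for Ache to 0.43 for Chrng.

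The largest of these changes were in the subunits that differed most between MB and MT. Chrng was higher by 0.43 (0.37 to 0.50), a ratio of 1.36 (1.30 to 1.42), and Chrnd by 0.37 (0.30 to 0.43), a ratio of 1.30 (1.23 to 1.36). Dok7 was higher by 0.27 (0.08 to 0.46), and both Musk (0.08 to 0.40) and Lrp4 (0.15 to 0.34) by 0.24. Chrna1 was at 0.16 (0.13 to 0.19) and Rapsn at 0.12 (0.02 to 0.22). Chrnb1 was at 0.01 (−0.07 to 0.08), Chrne at −0.06 (−0.14 to 0.02) and Ache at −0.07 (−0.35 to 0.21), and for these 3 the interval includes 0. Relative to Chrna1 in the same library, Chrng went from 55.4% (53.6% to 57.3%) in si-NC to 67.4% (65.0% to 69.8%) in si-hnRNPL and Chrnd from 28% (27.0% to 29.0%) to 32.5% (31.3% to 33.8%), while Chrnb1 went from 40.4% (39.0% to 41.9%) to 36.4% (34.9% to 38.0%). When both tables were rescaled to the same FPKM total, Chrna1 was at 0.04, Rapsn at 0.01 and Chrnb1 at −0.11, with Chrng at 0.32 and Chrnd at 0.25.

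Of the 6 muscle markers, 1 reached 0.58 in the knockdown pair, on the higher side, and the median of the 6 was 0.28. Ckm, muscle creatine kinase, was at 45.0 FPKM in si-NC and 74.3 FPKM in si-hnRNPL (log2 change 0.71), Myog, myogenin, at 174.7 and 249.4 FPKM (0.51), and Myh3, embryonic myosin heavy chain, at 162.5 and 208.9 FPKM (0.36). Myf5, a factor of myoblasts, was at 38.5 and 29.0 FPKM (−0.40). It did not separate myoblasts from myotubes in the total RNA libraries, at 13.8 FPKM in MB and 13.6 FPKM in MT (−0.01). The study stained and blotted myosin heavy chain in hnRNPL knockdown cells and reported hnRNPL as a repressor of myoblast differentiation. How far the cultures of these 2 libraries differed in their progress through differentiation was not tested here. The part of this in the changes of the members was not tested either.

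Other named genes were grouped by their change for MT over MB, a grouping made after these values were seen. For the 1589 named genes other than the members counted as higher in MT, the median change for si-hnRNPL over si-NC was 0.04 and 57.1% were above 0. For the 821 with a log2 change of 1 or more for MT over MB, the median was 0.11 and 64.8% were above 0. For the 110 with a change of 3 or more the median was 0.35 and 85.5% were above 0, with quartiles of 0.15 and 0.55. Chrng and Chrnd, at 0.43 and 0.37, lie within those quartiles. Over all 10770 other genes the median was −0.01.

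**Figure D4:**
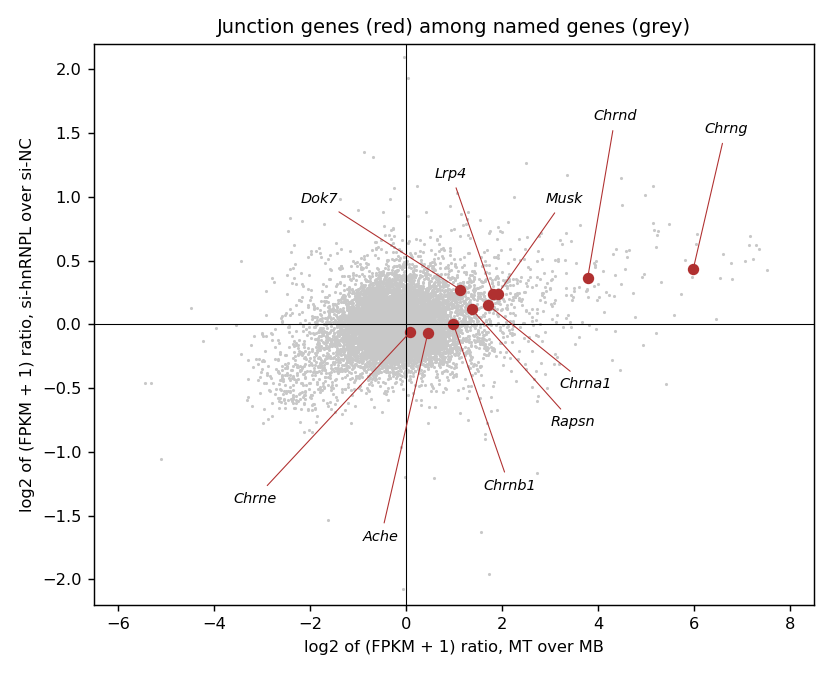
Log2 change for si-hnRNPL over si-NC (y axis) against log2 change for MT over MB (x axis), with 10770 named genes at 1 FPKM or more in at least 1 library of each comparison in grey, 18 of which lie beyond the y axis, and the 10 junction genes in red. Chrng and Chrnd lie at the right, at 5.98 and 3.78 on the x axis, in a part of the grey cloud that is mostly above 0.

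The genes whose pair of changes was nearest to that of Chrng, among 7786 named genes at 5 FPKM or more in both MT and si-NC, were Tnnt1 (distance 0.07 in log2 units), Myl4 (0.18) and Tnnc1 (0.20). Tnnt1 and Tnnc1 encode slow-type troponins and Myl4 the embryonic and atrial myosin light chain, and Tnnt1 was at 2.66 FPKM in MB and 224.4 FPKM in MT. Those nearest to Chrna1 were Slc1a3, a glutamate transporter (0.04), Daam2, a formin of the Wnt pathway (0.07), and Pbxip1 (0.08). Each likeness rests on 2 changes from 4 libraries.

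The wider junction genes did not share 1 change for MT over MB. A further 36 genes were taken in 4 lists (cleft and basal lamina, signalling around the receptor, postsynaptic cytoskeleton, and transcription of synaptic genes). Of these, 12 were counted as higher and 6 as lower in MT, with a median of 0.10. In all, 32 of them were at 1 FPKM or more in at least 1 library. Of all named genes above 0 FPKM in at least 1 of the 2 libraries, 10.6% were counted as higher and 18.5% as lower. Among named genes at 1 FPKM or more in at least 1 library, 15.4% were counted as higher. The counts of each list below are to be read beside these shares. They hold for the FPKM values as deposited and were not recomputed with other scalings. Rescaling to the same FPKM total is a shift of 1.07 on the log2 scale for MT over MB. The 6 lower genes, at −0.90 to −0.68, all have changes smaller in size than that shift. For si-hnRNPL over si-NC 0 of the 36 were higher and 0 lower, with a median of −0.05. Of all named genes above 0 FPKM there, 0.939% were higher and 0.618% lower.

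In the cleft and basal lamina 4 of 9 genes were higher and 1 was lower. Dag1, dystroglycan, was at 34.2 FPKM in MB and 106.4 FPKM in MT (1.61), Lama4, a laminin chain, at 0.297 and 2.06 FPKM (1.24), and Nid2, nidogen, at 35.4 and 69.1 FPKM (0.94). Colq, the collagen tail that anchors Ache in the cleft, was at 0.0274 and 0.719 FPKM (0.74). Nrg1, neuregulin, was lower, at 7.08 and 3.33 FPKM (−0.90), and Agrn, agrin, was at 3.68 and 4.33 FPKM (0.19), not counted either way.

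In signalling around the receptor 2 of 13 were higher and 3 lower. Erbb3, a neuregulin receptor, was at 0.688 FPKM in MB and 11.5 FPKM in MT (2.89), and Macf1, a cytoskeletal linker, at 30.8 and 65.8 FPKM (1.07). The kinases Abl1 (−0.88) and Abl2 (−0.74) and the actin-binding Cttn (−0.72) were lower. The median of the 13 was −0.40, where that of named genes at 1 FPKM or more in both libraries was −0.23.

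In the postsynaptic cytoskeleton 4 of 7 were higher and 0 lower. Sntb1, a syntrophin, was at 1.11 and 19.2 FPKM (3.26), Syne1, which holds nuclei beneath the synapse, at 2.37 and 11.3 FPKM (1.87), Dtna, dystrobrevin, at 6.54 and 22.3 FPKM (1.63), and Utrn, utrophin, at 17.6 and 27.1 FPKM (0.60). Of 7 transcription factors and cofactors 2 were higher and 2 lower. Myog was at 0.695 FPKM in MB and 250.6 FPKM in MT (7.21) and Hdac9, a class II deacetylase that represses synaptic genes in innervated muscle, at 0.332 and 1.74 FPKM (1.04), whereas the GABP beta subunit Gabpb1 (−0.69) and the ETS factor Etv5 (−0.68) were lower and Gabpa was at −0.01.

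The neuronal members of the receptor family were nearly silent. None of the 11 neuronal subunit genes reached 1 FPKM, and together they summed to at most 0.328 FPKM in a library, of which Chrnb2 was the largest part at 0.251 FPKM in MT. Bche, the other cholinesterase, was at 0.0199 to 0.0326 FPKM and Prima1, the membrane anchor of Ache, was listed at 0 in all 4 libraries.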

How the data were processed

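Total RNA-seq (MB, MT) and polyA RNA-seq (si-NC, si-hnRNPL) of C2C12 cells were used, with 1 library per condition. The authors trimmed the reads, dropped those under 36 bp, aligned them to mm9 with TopHat2 and deposited FPKM values from Cufflinks, each with a 95% interval. Total RNA libraries were strand-specific, and whether counting used strand is not given in the sources used here. The polyA kit was named without a strand setting.

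Members and gene lists were chosen with earlier results of these data known. All 10 members were reported, and every gene of the 4 junction lists that passed 0.58 in either comparison was named. Agrn, Gabpa, Chrnb2, Bche, Prima1 and the markers were named besides. For Chrna1 and Chrng the 3 genes nearest in the pair of log2 changes were named. Changes were log2((FPKM + 1) ratio), with the half-widths of the intervals added in quadrature. For ratios between genes of a library the relative half-widths were added in quadrature on the log scale. The interval of the Chrng share runs from the smallest to the largest share that the 2 FPKM intervals allow. It is therefore not a 95% interval. Fragments were taken as (2 × FPKM / half-width) squared. Exact Clopper-Pearson intervals were put on MT over MB ratios. Below 200 fragments 91.3% of MB and 92.1% of MT entries but 27.2% of si-NC and 25.8% of si-hnRNPL entries came within 0.02 of a whole number, so there half-widths were used. Promoter windows came from RefSeq (GRCm38.p6), and gene positions from the deposited tables (mm9). Python 3.11.15, numpy 2.4.6, pandas 2.3.3 and scipy 1.17.1 were used, and the scripts were tested on simulated data.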

Additional observations from a re-analysis of the deposited data

Results flagged for a closer look

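The total RNA tables also hold units assembled without a gene symbol, which enter no comparison above. 3 of them lie wholly within an intron of a member, and each was above its MB value in MT, as were 79.3% of all 36780 assembled units. The unit within Musk (chr4:58361580-58361951, mm9) was at 0.114 FPKM in MB (about 2 fragments) and 0.804 FPKM in MT (about 15). The unit within Dok7 (chr5:35401983-35402386) was at 0.938 FPKM (about 19) and 2.15 FPKM (about 46), and the unit within Lrp4 (chr2:91300173-91300419) at 0.677 FPKM (about 5) and 3.89 FPKM (about 31). They are 247 to 404 bp long, and their host genes were higher in MT by log2 changes of 1.91, 1.13 and 1.81. Whether these fragments come from separate transcripts or from unspliced RNA of the host gene was not tested.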

How the results depend on the processing

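The counts and medians of the members and the Chrng share were recomputed under other settings. Those of the gene lists, the markers and the neighbouring entries were not. Members higher in MT numbered 7 to 10 of 10 and members lower 0 in all of them. The members' median for MT over MB was 1.76 with a pseudocount of 0.1, 1.81 with 0.01, 1.75 when centred on named genes, 2.59 when rescaled to the same FPKM total (a factor of 2.1, or 1.07 on the log2 scale), and 1.75 over the 8 members at 1 FPKM or more. After subtraction of medians by transcript length and GC content, a setting chosen after seeing the data, it was 1.57. For si-hnRNPL over si-NC the median was 0.084 after rescaling (a shift of −0.12), 7 rather than 8 members were then above 0, and 6 after subtraction by length and GC content, where Rapsn and Chrnb1 were both at −0.04. With a pseudocount of 0.01, 1 member was counted as lower there, Chrne at −2.38, which rests on 2 fragments against 0. With 0.1 added to both, the Chrng share of Chrng plus Chrne was 75.2% in MB, 99.76% in MT, 99.82% in si-NC and 99.91% in si-hnRNPL. Summing entries with the same symbol could not change these values, since each member has 1 entry in every library. The FPKM totals of named genes differ, at 621542 in MB and 296284 in MT, so all changes between them carry that scaling. No paired analysis was possible because each condition has 1 library. Depth limits Chrne and Ache, which rest on at most 62 fragments in a library.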

Other observations

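Around the members, 8 further assembled units without a symbol lay within 5 kb of a member, and all 8 were above their MB value in MT, 1 of them by 0.58 or more. Of all 36780 assembled units 79.3% were above their MB value and 19.8% by 0.58 or more, so nothing is read from the 8. The unit between Chrnd and Chrng (chr1:89100492-89102177, mm9), which ends 209 bp before Chrng, was at 0.0079 FPKM in MB (1 fragment) and 0.234 FPKM in MT (about 31 fragments). The unit 4508 bp from Chrna1 (chr2:73422903-73433634) was at 1.79 FPKM in MB and 4.06 FPKM in MT, a log2 change of 0.86. Of 9 named genes within the same distance, 3 were above their MB value and 2 by 0.58 or more, both beside Chrnb1. Fgf11, 131 bp away, was at 1.91 and 7.76 FPKM (1.59) and Zbtb4, 10 bp away, at 4.67 and 10.9 FPKM (1.07). Srrt, 1238 bp from Ache, was at 58.3 FPKM in MB and 24.9 FPKM in MT (−1.20). Reads of overlapping or adjoining transcripts were not separated here by strand.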
